A study of Mus musculus with 12 samples.

Results

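The genes described here encode 10 proteins that bind AU-rich elements (AREs): the ELAV-like proteins (Elavl1, Elavl2, Elavl3 and Elavl4), the Zfp36 family (Zfp36, Zfp36l1 and Zfp36l2), and Hnrnpd, Khsrp and Tia1. They were chosen by name, as genes known to set mRNA stability or translation through AREs, and make up 10 of the 37991 genes in the deposited counts. All 10 passed the filter on low counts and were among the 16399 genes tested.

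Poly(A) RNA was sequenced from hippocampi of 12 C57BL/6N mice, 6 labelled wild type (Gadd45a-WT here) and 6 labelled Gadd45a-/- (Gadd45a-KO here). The mice came from crosses of heterozygotes, were siblings aged 6 to 7 months, and were killed 1 h after passive avoidance (PA) training, a task in which a mouse learns to stay out of a dark compartment where it received a foot shock. In the mutant allele, present in all cells from conception, a neomycin cassette stands in place of the first 3 exons of Gadd45a, a stress-induced gene whose protein binds RNA, and the last exon remains. No untrained mice are among these libraries, so the comparison is between labels after training and gives no response to training.

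Gadd45a itself had more reads under the KO label, which runs against the labels. WT-labelled libraries held 2.19 to 3.43 CPM (reads scaled by the library's reads on genes after TMM normalization) and KO-labelled libraries held 20.5 to 23.1 CPM, 8.33 times as much in the fit. The count covers the whole gene, including the exon that the mutant allele keeps, so it does not settle which libraries carry the deletion. Libraries are therefore named by label throughout, every fold change is the KO-labelled minus the WT-labelled group, and each direction below rests on the labels. Each library had 44594261 to 55540601 reads on genes. All 11 markers of hippocampal principal cells were among the genes tested and summed to 1757 to 1848 CPM in WT-labelled and 1398 to 1763 CPM in KO-labelled libraries. The KO-labelled replicates 2 and 3 stood apart in 6 thalamic markers, which summed to 228 and 353 CPM there against 56.3 to 95.6 CPM in the other 10 libraries. KO-labelled replicate 3 also had the highest sum of 6 oligodendrocyte markers, 7311 CPM against 2317 to 3738 CPM elsewhere. Fewer cells of a type and less RNA per cell cannot be told apart in bulk tissue.

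AREs are stretches of adenosines and uridines in 3′UTRs that shorten or lengthen the life of an mRNA, depending on the protein that occupies them. ELAV-like proteins stabilise such mRNAs or promote their translation, and Elavl2, Elavl3 and Elavl4 are largely restricted to neurons while Elavl1 is found in most cells. The Zfp36 proteins recruit deadenylases and speed decay, Khsrp brings in the exosome and the deadenylase PARN, Hnrnpd (AUF1) mostly promotes decay, and Tia1 holds back translation and gathers mRNAs in stress granules. Several of these proteins are known to bind their own or each other's mRNAs, and many immediate early and neuronal growth mRNAs carry AREs.

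AREs in the mRNAs of the binding proteins themselves are shown first, because these mRNAs could be targets of the same family. The nonamer TTATTTATT was searched on the transcript strand of the longest annotated 3′UTR (NCBIM37), counting overlapping matches. It was found in 7.47% of the 14641 tested genes with an annotated 3′UTR and in 5 of the 10 genes here, namely Elavl1, Elavl4, Zfp36, Zfp36l1 and Zfp36l2. In each line below the nonamer is in capitals, and overlapping nonamers run together.
Elavl1 (chr8:4285781-4285810, minus strand): aaaaTTATTTATTTATTTATTTATTtttat
Elavl4 (chr4:109877589-109877618, minus strand): cttgaaacacTTATTTATTtaattgcagat
Zfp36 (chr7:29161969-29161998, minus strand): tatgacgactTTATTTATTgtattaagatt
Zfp36l1 (chr12:81209153-81209182, minus strand): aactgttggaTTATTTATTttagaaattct
Zfp36l2 (chr17:84584253-84584282, minus strand): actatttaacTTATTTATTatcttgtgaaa

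Elavl1 held the nonamer 8 times in its 3′UTR of 4818 bases, 4 of them in the cluster printed above. Among 782 tested genes with a 3′UTR of 0.8 to 1.2 times that length, 20.2% had any. The other 4 genes held it once each. In Zfp36, whose 3′UTR has 774 bases, the single copy compared with 3.78% of 1748 genes of like length that had any. All 3 genes of the Zfp36 family also held the heptamer TATTTAT 3 times each, matches inside the nonamer included. So did Elavl2 and Elavl3, while Elavl1 held it 8 times and Elavl4 2 times. At least 1 was found in 27.9% of all 14641 genes. Among genes of like length the share was 18.4% for Zfp36, 35.6% for Zfp36l1 and 35.5% for Zfp36l2. For the ELAV-like genes it was 41.7% to 60.1%. Khsrp stood at the other end, with 1 ATTTA pentamer, no heptamer and no nonamer in 1635 bases. Hnrnpd had 5 pentamers and neither longer motif, and Tia1 had 8 pentamers and 1 heptamer. The motifs are a description of the annotated sequence, and neither use nor binding of the sites was measured.

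The levels of the 10 mRNAs spanned a wide range per length. CPM were divided by the length of the union of annotated exons in kilobases, and the mean and SD over all 12 libraries were taken. The neuronal gene Elavl3 was highest, with 50.6 ± 1.80 CPM per kilobase (SD, n = 12). Khsrp (23.2 ± 1.91) and Hnrnpd (23.2 ± 1.51) followed in the same unit, and their libraries overlapped. Elavl2 and Elavl1 came next and also overlapped, with 16.1 ± 2.34 and 16.1 ± 0.722 CPM per kilobase. Below them stood Tia1 with 11.2 ± 0.870 and Elavl4 with 9.54 ± 0.624 CPM per kilobase, again overlapping. The Zfp36 family was lowest, with 6.00 ± 0.837 for Zfp36l1, 5.07 ± 0.647 for Zfp36l2 and 1.52 ± 0.189 CPM per kilobase for Zfp36, of which only the first pair overlapped.

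The order depended on the length used. With the longest annotated transcript in place of all exons, Tia1 moved from sixth to second, at 32.5 ± 2.52 CPM per kilobase, since its exons join to 12945 bases while its longest transcript has 4475. Elavl3 remained first and the 3 Zfp36 genes remained last. On this scale the ranges of neighbours from Tia1 down to Elavl1 overlapped pair by pair, and Elavl4 (12.4 ± 0.810 CPM per kilobase) stood below them. Within the ELAV-like family, Elavl3 took 54.9% of the summed level per exon length, against 17.4% for Elavl1, 17.4% for Elavl2 and 10.3% for Elavl4. Per length of the longest transcript these shares were 50.7%, 16.1%, 20.9% and 12.4% in the same order. Within the Zfp36 family, Zfp36l1 took 47.6%, Zfp36l2 40.3% and Zfp36 12.2%.

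**Figure D1:**
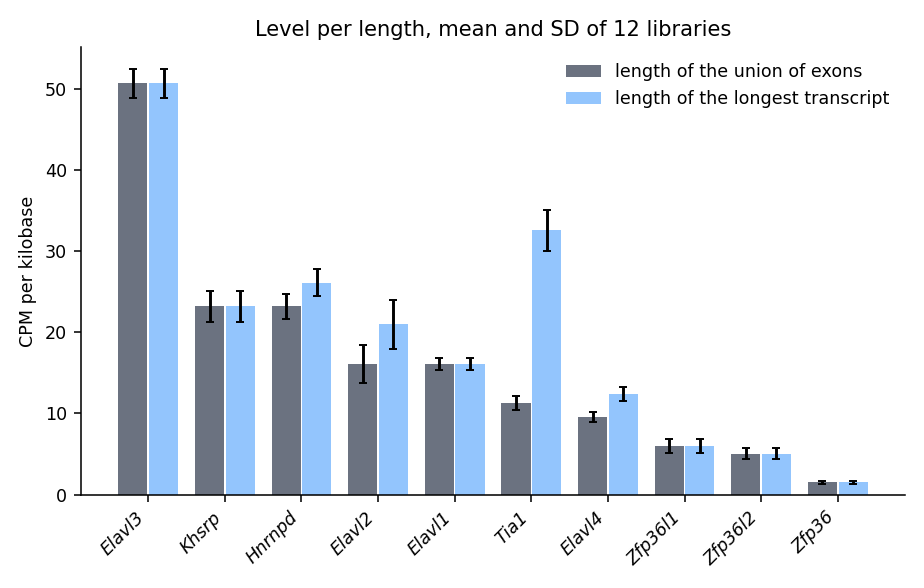
Level of each mRNA in CPM per kilobase (y axis), as the mean and SD of 12 libraries, using the length of the union of exons (grey) or of the longest transcript (blue). Elavl3 was highest and Zfp36 lowest on both scales, and Tia1 differed most between them, 11.2 against 32.5 CPM per kilobase.

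Between the labels, 1 of the 10 genes passed 1% FDR (edgeR, quasi-likelihood, p-values adjusted by Benjamini-Hochberg over all genes tested), and none was higher (0 of 10). That gene was Tia1, lower in KO-labelled libraries. Over all 16399 genes tested, 2.65% were called at this threshold, 2.62% lower and 0.0244% higher; 1 of 10 is a small count to set against that share. DESeq2 called Tia1 and Hnrnpd, both lower, where it called 3.8% of the 17831 genes to which it gave an adjusted p, 3.7% of them lower. At an unadjusted p under 0.05, 3 of the 10 were counted (Zfp36l1 higher, Hnrnpd and Tia1 lower), beside 13.7% of all genes (4.34% higher and 9.35% lower). The median log2 fold change of the 10 was 0.04, beside 0.00 over all genes tested. The groups did not overlap for 1 gene, again Tia1, beside 3.31% of all genes (3.12% lower).

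**Figure D2:**
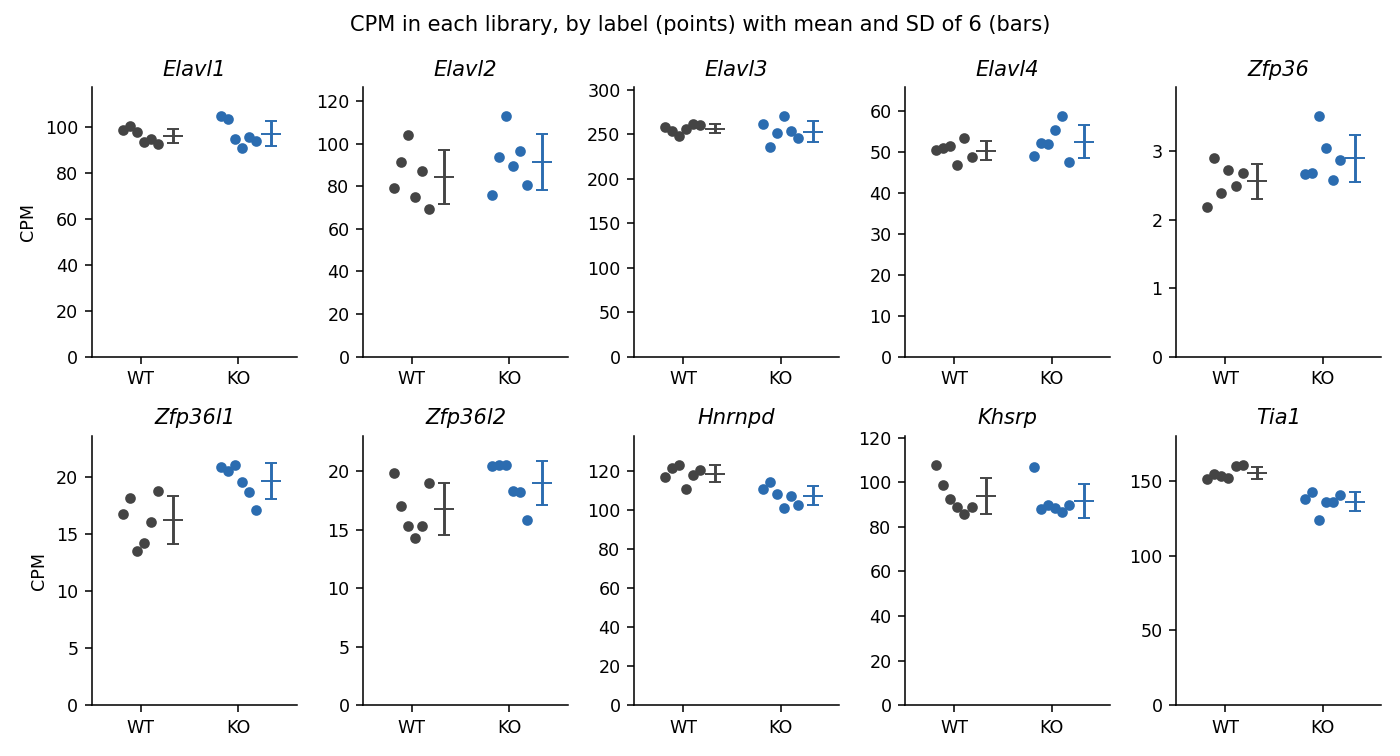
CPM (y axis, from 0) of each gene in the 6 libraries labelled Gadd45a-WT (WT, grey) and the 6 labelled Gadd45a-KO (KO, blue), with the mean and SD of each group beside the points. Tia1 is the gene whose groups do not overlap, 151 to 161 CPM against 124 to 143 CPM.

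Tia1 carries RNA recognition motifs and a domain that lets it condense into stress granules. It lies on the plus strand of chromosome 6 (chr6:86354213-86383397, NCBIM37, gene ENSMUSG00000071337). In WT-labelled libraries its lowest value was 151 CPM, its median 154 CPM and its highest 161 CPM. In KO-labelled libraries these were 124, 137 and 143 CPM. Every KO-labelled library was thus below every WT-labelled one, with KO-labelled replicate 3 the lowest by a clear gap. The group means were 155 ± 4.11 and 136 ± 6.57 CPM (SD, n = 6 each), from 6264 to 8404 reads a library. The log2 fold change was -0.19 with a standard error of 0.04 (95% interval -0.27 to -0.11), a level 12% lower, with an adjusted p of 0.00526 from edgeR.

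In edgeR the call on Tia1 was close to the threshold and did not hold under every setting. DESeq2 gave Tia1 a log2 fold change of -0.18 with an adjusted p of 1.86e-05. The fits that follow are from edgeR. With a smooth offset for exon length in each library, its log2 fold change was -0.08 and its adjusted p 0.464. With such an offset for GC content it was -0.12 with an adjusted p of 0.0808. Both offsets use the whole exon union, which for Tia1 is far longer than its longest transcript. With the longest transcript in its place, an alternative added after the data were seen, the log2 fold change was -0.18 and the adjusted p 0.0206. Leaving out any 1 library gave log2 fold changes of -0.19 to -0.16 and adjusted p values of 0.00721 to 0.0239, and the call stood in 3 of these 12 fits. The direction was the same in all 24 alternative fits.

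Other measured features moved with Tia1. The library with its lowest level, KO-labelled replicate 3, was the one highest in oligodendrocyte and thalamic markers. After subtracting the group means, Tia1 log2 CPM had a Pearson correlation below 0 with each of the 6 oligodendrocyte markers over the 12 libraries, from -0.85 (Mag) to -0.77 (Mog), a description in which all genes share the same libraries. Without KO-labelled replicate 3 the log2 fold change of Tia1 was -0.16 with an adjusted p of 0.00863, and without KO-labelled replicates 2 and 3 together, also an added alternative, it was -0.17 with an adjusted p of 0.0136. The part of tissue composition in its difference was not tested further. Tia1 also shares chromosome 6 with Gadd45a, starting 19.4 Mb beyond its end. Of 102 genes tested between them, 2 were lower and 3 higher at 1% FDR (4.90% in all), beside 2.62% lower and 0.0244% higher over all genes tested. Of 32 genes tested within 1 Mb of Tia1, 1 was lower (Alms1) and none higher. On chromosome 6 more than 20 Mb from Gadd45a, 14 of 596 genes were lower and none higher (2.35%). What the position of Tia1 has to do with its value was not tested.

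Hnrnpd, the gene for AUF1, was the next lowest. Its CPM ran from 111 over a median of 119 to 123 in WT-labelled libraries, and from 101 over 107 to 114 in KO-labelled libraries. All 6 KO-labelled libraries were below the WT-labelled mean and 5 were below the lowest WT-labelled library, which was replicate 4. The fold change was -0.14 on the log2 scale (SE 0.04, 95% interval -0.22 to -0.06) with an adjusted p of 0.0391 in edgeR, which misses 1% FDR and passes 5%, as 4.55% of all genes did (4.43% lower). In DESeq2 the adjusted p was 0.00967, and with the offset for GC content the log2 fold change was -0.08 with an adjusted p of 0.234.

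The 3 genes of the Zfp36 family had higher means in KO-labelled libraries, but none passed the test. Zfp36l1, an inducer of mRNA decay that is abundant in glia and blood vessels, ran from 13.4 over a median of 16.4 to 18.7 CPM in WT-labelled libraries. In KO-labelled libraries it ran from 17.0 over 20.04 to 21.0 CPM, so that the groups overlapped while 4 KO-labelled libraries were above every WT-labelled one. Its log2 fold change was 0.27 (SE 0.08, 95% interval 0.10 to 0.45), the largest of the 10 in size, with an adjusted p of 0.0837 in edgeR. The same adjusted p ranged from 0.0255 to 0.361 over 24 alternative fits.

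Zfp36l2, a close relative, ran from 14.3 over 16.2 to 19.8 CPM in WT-labelled and from 15.8 over 19.4 to 20.6 CPM in KO-labelled libraries, with broad overlap. Its log2 fold change was 0.18 (SE 0.09, 95% interval -0.01 to 0.37, edgeR adjusted p = 0.402). Zfp36 (tristetraprolin), the family member known as an immediate early gene, was counted by only 99 to 182 reads a library. It ran from 2.18 over 2.58 to 2.89 CPM in WT-labelled and from 2.58 over 2.77 to 3.51 CPM in KO-labelled libraries, again overlapping. The log2 fold change of Zfp36 was 0.18 (SE 0.10, 95% interval -0.03 to 0.38, edgeR adjusted p = 0.458), an interval that leaves room for a level up to 1.30 times as high.

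Endothelial markers were among the genes that moved with Zfp36l1 within the groups. After subtracting the group means, all 5 had a Pearson correlation above 0 with it over 12 libraries, from 0.31 (Tek) to 0.78 (Cldn5). These 5 markers summed to 112 to 162 CPM in WT-labelled and 138 to 159 CPM in KO-labelled libraries, and their median log2 fold change was 0.12. The 6 astrocyte markers summed to 1321 to 1659 CPM in WT-labelled and 1484 to 1620 CPM in KO-labelled libraries. None of these markers passed 1% FDR, and their part in the values of Zfp36l1 was not tested. The 6 thalamic markers also correlated above 0 with each Zfp36 gene by the same measure. The ranges were 0.32 to 0.43 (Zfp36), 0.32 to 0.47 (Zfp36l1) and 0.405 to 0.548 (Zfp36l2). Without the 2 KO-labelled libraries highest in these markers, an added alternative, the log2 fold changes were 0.13, 0.23 and 0.12 in that order. With all libraries they were 0.18, 0.27 and 0.18. The part of the thalamic markers in these values was not tested.

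Among the ELAV-like genes, Elavl3 and Elavl1 had the log2 fold changes nearest 0. Elavl3, the most abundant, ran from 248 over 257 to 261 CPM in WT-labelled and from 235 over 253 to 270 CPM in KO-labelled libraries. Its log2 fold change was -0.02 (SE 0.03, 95% interval -0.09 to 0.06, edgeR adjusted p = 0.896). Elavl1, the ubiquitous member known as HuR, ran from 92.6 over 96.4 to 100.4 CPM and from 90.9 over 95.3 to 105 CPM in the same order. Its log2 fold change was 0.01 (SE 0.04, 95% interval -0.07 to 0.10, edgeR adjusted p = 0.934). For both genes the KO-labelled libraries lay on either side of the WT-labelled range, and the fold intervals, 0.937 to 1.04 for Elavl3 and 0.952 to 1.07 for Elavl1, leave out larger differences.

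Elavl4 (HuD), which binds mRNAs of axon growth, ran from 46.7 over 50.7 to 53.5 CPM in WT-labelled and from 47.7 over 52.1 to 58.8 CPM in KO-labelled libraries, with a log2 fold change of 0.06 (SE 0.05, 95% interval -0.05 to 0.17, edgeR adjusted p = 0.688). Elavl2 (HuB) varied most between mice of one label. It ran from 69.5 over 83.2 to 104 CPM in WT-labelled and from 75.8 over 91.5 to 113 CPM in KO-labelled libraries, a coefficient of variation of 14.8% and 14.4%. Its log2 fold change of 0.11 had the widest interval of the 10 (SE 0.10, 95% interval -0.11 to 0.34, edgeR adjusted p = 0.728), and a difference of that size was not detectable over this spread. Leaving out any 1 library moved the value between 0.05 and 0.19, and without KO-labelled replicates 2 and 3, an added alternative, it was 0.02. The coefficient of variation was 1.99% and 4.79% for Elavl3 and 4.64% and 7.74% for Elavl4.

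Khsrp ran from 85.9 over 90.7 to 108 CPM in WT-labelled and from 86.7 over 89.0 to 107 CPM in KO-labelled libraries. The highest library was replicate 1 under both labels. Its log2 fold change was -0.03 (SE 0.06, 95% interval -0.17 to 0.10, edgeR adjusted p = 0.889), and leaving out WT-labelled replicate 1 turned the sign, to 0.02.

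**Figure D3:**
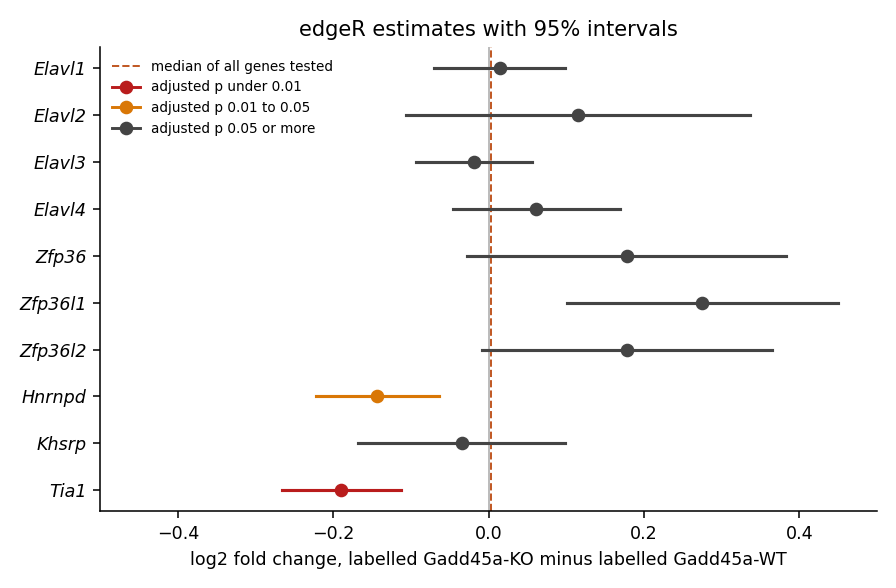
Log2 fold change (x axis, KO-labelled minus WT-labelled libraries, n = 6 each) with its 95% interval from edgeR for each gene, coloured by adjusted p. The interval of Tia1 runs from -0.27 to -0.11, that of Zfp36l1 from 0.10 to 0.45, and the dashed line marks the median of all genes tested, 0.00.

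**Figure D4:**
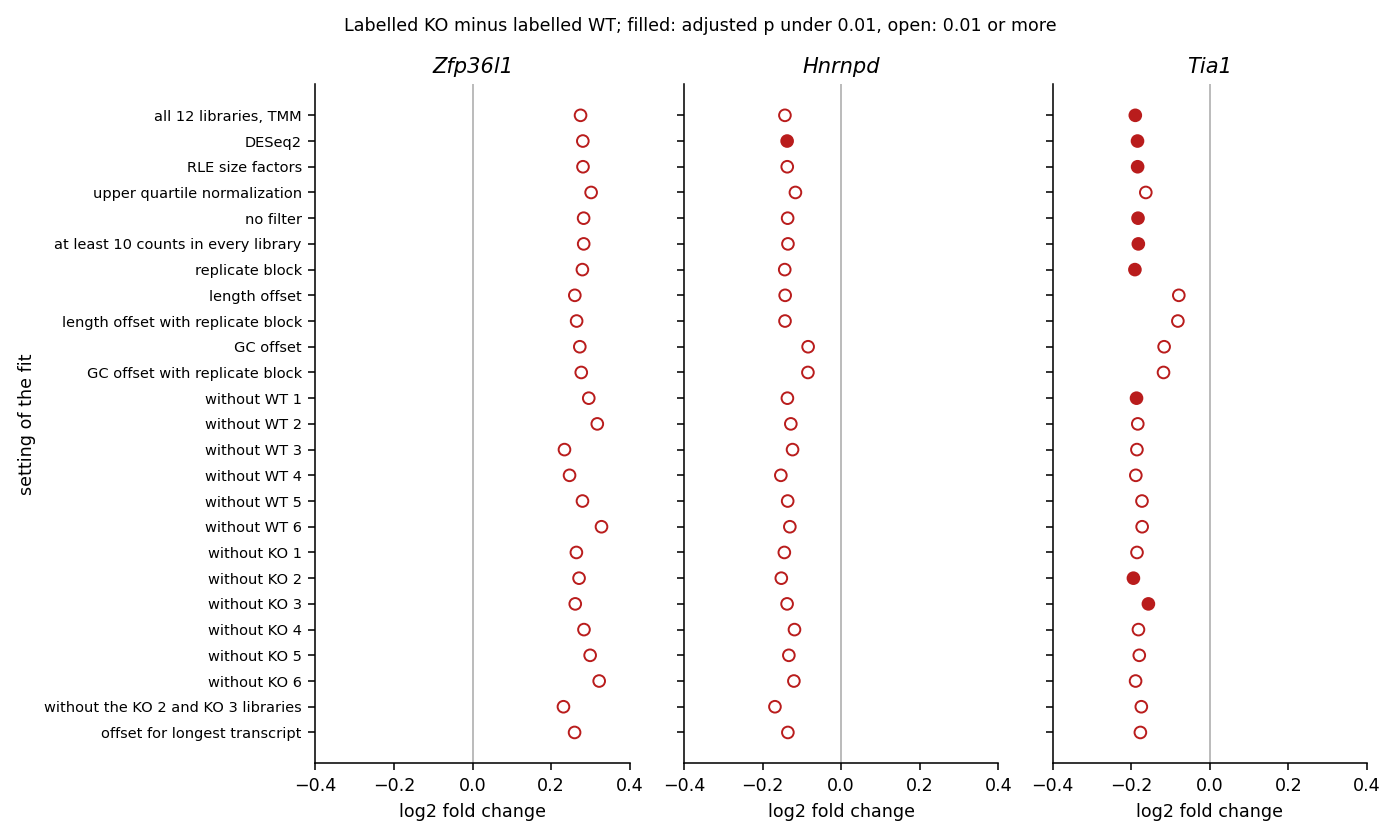
Log2 fold changes of Zfp36l1, Hnrnpd and Tia1 (x axes) in the fit with all 12 libraries and in 24 alternative fits (y axis). Filled points passed 1% FDR, as Tia1 did in the first fit and in 8 alternatives, Hnrnpd did with DESeq2, and Zfp36l1 did in none.

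The 10 genes did not vary together from mouse to mouse. Pearson correlations of log2 CPM were taken over the 12 libraries after subtracting each group's mean, as a description of genes that share libraries and scaling. Zfp36l1 and Zfp36l2 were the most alike, at 0.82, while Zfp36 stood at 0.27 with the first and -0.10 with the second. Elavl1 was alike with Hnrnpd at 0.74 and with Khsrp at 0.65. Elavl2 and Elavl4 stood at 0.54, and Elavl3 was at 0.21 or less with each other ELAV-like gene. Tia1 had no correlation above 0.19 with another gene of the set, and its lowest was -0.53 with Elavl2.

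**Figure D5:**
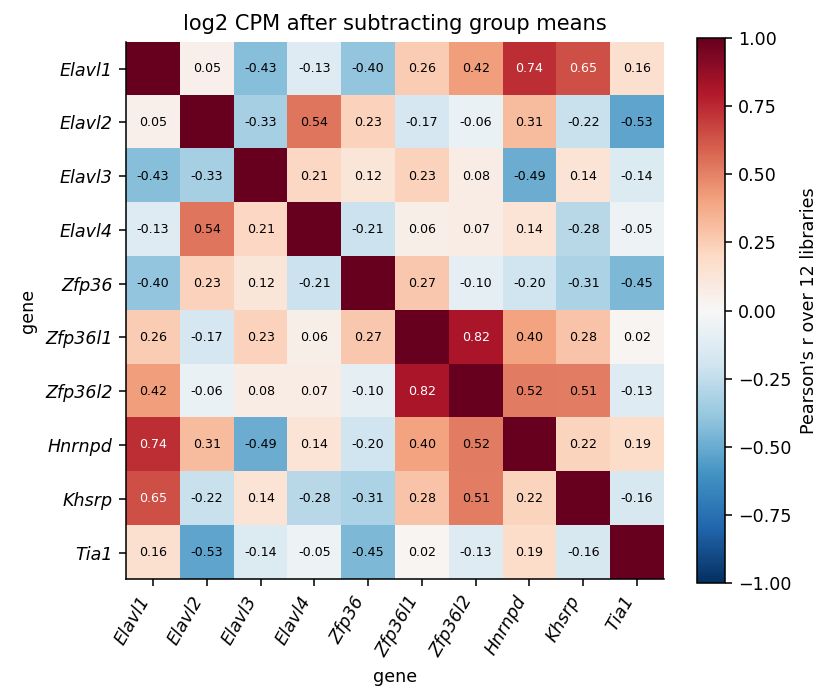
Pearson's r of log2 CPM (colour and numbers) between the 10 genes (both axes) over 12 libraries after the mean of each group was subtracted. The highest value is 0.82, for Zfp36l1 with Zfp36l2, and the lowest is -0.53, for Elavl2 with Tia1.

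By the same measure, the gene most like each member among all tested had a correlation of 0.90 to 0.97 over 12 libraries, a range reached by picking the highest of many. For Elavl1 it was Nptx1 (0.92), a secreted synaptic pentraxin. For Elavl2 it was Fstl5 (0.97), for Elavl3 Rims4 (0.90), a presynaptic protein, and for Elavl4 Efr3a (0.94). For Zfp36 it was Fank1 (0.94), and for Zfp36l1 0610010K14Rik (0.95), followed by the transcription factor gene Tbx3 (0.93) and the metalloprotease gene Mmp14 (0.93). The genes most like Zfp36l2 were Gm266 (0.90) and Sox9 (0.89). Sox9 marks astrocytes, but of the 6 astrocyte markers only 2 correlated above 0 with Zfp36l2, with a median of -0.13. The genes most like Hnrnpd were Map3k2 (0.94) and Zfx (0.94), and that most like Khsrp was Srp68 (0.93), of the signal recognition particle. For Tia1 they were 2810455O05Rik (0.97), Mettl17 (0.94) and Rbmx (0.94), a splicing regulator. None of these named genes passed 1% FDR between the labels.

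The other genes of ARE pathways were counted beside the share over all genes tested, 2.62% lower and 0.0244% higher at 1% FDR. Of 39 other proteins that bind AU-rich or U-rich RNA, 1 was lower and none higher, a share near that of all genes, with a median log2 fold change of -0.00. The gene was Celf2, a regulator of splicing and mRNA stability, with 636 ± 31.1 CPM in WT-labelled and 528 ± 26.3 CPM in KO-labelled libraries (log2 fold change -0.27, SE 0.04, edgeR adjusted p = 0.00162), a call that was lost with the length offset (-0.16, adjusted p = 0.0302). Tial1, the closest relative of Tia1, had 147 ± 6.48 and 138 ± 6.33 CPM (log2 fold change -0.09, SE 0.04, edgeR adjusted p = 0.295).

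Of 35 tested genes of the decay machinery that AREs recruit, 2 were lower and none higher, beside the same 2.62% and 0.0244% of all genes, with a median log2 fold change of -0.03. Xrn1, the 5′ to 3′ exonuclease that degrades decapped mRNA, had 13.3 ± 2.74 and 5.45 ± 0.566 CPM (log2 fold change -1.29, SE 0.12, edgeR adjusted p = 1.67e-05). Dcp2, the decapping enzyme, had 87.5 ± 5.99 and 69.2 ± 3.50 CPM (log2 fold change -0.34, SE 0.05, edgeR adjusted p = 0.00067). For both genes the groups did not overlap, and both calls held in every alternative fit run.

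Among 30 kinases, phosphatase subunits and ligands of the ARE binding proteins, the median log2 fold change was 0.01. At 1% FDR 1 was lower and none higher, again near the 2.62% lower and 0.0244% higher of all genes tested. The gene was Tnpo1, a nuclear import receptor that carries Elavl1, with 77.5 ± 4.68 and 65.9 ± 3.06 CPM (log2 fold change -0.23, SE 0.04, edgeR adjusted p = 0.0052), whose call was lost in 9 of the 12 fits that left out 1 library. Mapkapk2, the kinase that phosphorylates and inactivates Zfp36, had 26.6 ± 1.52 CPM in both groups, with a log2 fold change of 0.00 (SE 0.05, edgeR adjusted p = 0.999).

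Of 40 mRNAs long known to carry AREs, 33 were tested and 0 passed 1% FDR in edgeR or DESeq2, beside 2.65% and 3.8% of all genes. At an unadjusted p under 0.05 there were 5 (2 higher, 3 lower), beside 13.7% of all genes. The list had a median log2 fold change of -0.02. Homer1 had the smallest adjusted p of the list, with 126 ± 14.0 and 103 ± 12.7 CPM (log2 fold change -0.28, SE 0.08, edgeR adjusted p = 0.0864). The immediate early gene Fos had 5.33 ± 1.47 and 4.18 ± 0.426 CPM (log2 fold change -0.35, SE 0.15, edgeR adjusted p = 0.307). Bdnf, the neurotrophin gene, had 51.0 ± 4.68 and 48.9 ± 3.39 CPM (-0.06, SE 0.06, adjusted p = 0.759), and Gap43, a target of Elavl4 in axon growth, 64.5 ± 12.7 and 70.3 ± 13.4 CPM (0.12, SE 0.14, adjusted p = 0.793). Of 21 activity-induced genes, several of them also on the list of ARE mRNAs, 0 passed in edgeR or DESeq2, beside the same 2.65% and 3.8%. With so few genes, 0 calls is near those shares. At an unadjusted p under 0.05 there were 3 (1 higher, 2 lower), beside 13.7% of all genes. Their median log2 fold change was -0.08, the lowest of the gene lists, beside 0.00 over all genes tested.

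Of genes with the printed nonamer 60 of 1094 (5.48%) were called lower, and of those without it 323 of 13547 (2.38%). Shares were also counted within classes of 3′UTR length. Up to 500 bases the shares were 3.92% of 51 with the nonamer and 1.22% of 3527 without it. From 500 to 1000 bases, the class of Zfp36, they were 0.893% of 112 and 1.27% of 2829. From 1000 to 2000 bases, the class of Zfp36l1 and Zfp36l2, they were 3.77% of 318 and 1.64% of 3602. From 2000 to 4000 bases, the class of Elavl4, they were 3.75% of 400 and 3.22% of 2858. Over 4000 bases, the class of Elavl1, they were 14.1% of 213 and 12.7% of 731. The differences between these shares were not tested. The 5 binding protein genes that hold the nonamer were not among those called. Of the genes called in the other gene lists, Celf2 (7381 bases), Dcp2 (7240) and Tnpo1 (5637) have annotated 3′UTRs over 4000 bases. That of Xrn1 has 218 bases.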

How the data were processed

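Hippocampal poly(A) RNA of 6 mice labelled wild type and 6 labelled Gadd45a-/- was sequenced as stranded single reads. The authors aligned reads with TopHat 1.4.1 to NCBIM37 and deposited raw counts per Ensembl gene from htseq-count (HTSeq 0.5.4p3, reverse strand), with no normalization or pooling. Reads without a gene or ambiguous were 13.7% to 16.4% of a library and were left out, as were reads aligned to several places, so genes with near-identical copies may be undercounted. Overlapping genes lay only on the opposite strand of Elavl2, Zfp36l1 and Hnrnpd, with at most 4 reads.

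Groups came from the sample labels. Gene names, lengths and 3′UTRs came from an annotation of the same build but of an earlier Ensembl release, which matched 37205 of 37991 gene IDs. Where a symbol had several IDs, that with most reads was used. Counts were filtered, TMM-normalized and compared in edgeR 4.0.16 (R 4.3.3) with quasi-likelihood F tests and no covariates, at 1% FDR over all genes tested. Standard errors were derived from the log2 fold change and F. Log2 CPM used a prior count of 2. P-values set the difference between the labels against the spread between mice of one label. Alternatives were DESeq2 1.42.0, RLE and upper quartile scaling, other filters, 5% FDR, the replicate number as a block, spline offsets (5 degrees of freedom) for length or GC content, leaving out each library, and 2 added after the data were seen. On simulated counts, with a log2 change of 1 put into 200 genes, edgeR recovered 197 with 3 others of 16310 tested, and DESeq2 198 with 8 others of 16399.

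The 10 genes, the gene lists and the markers were chosen with earlier results of these data known. Named are the 10 genes, list genes at 1% FDR (at most 4 a list), up to 3 most correlated genes each and Gadd45a. Tial1, Mapkapk2, Homer1, Fos, Bdnf, Gap43 and Alms1 are named outside that rule, chosen after their values were seen. Of the marker lists, Zbtb20 (log2 fold change -0.43) among hippocampal and Map2 (-0.33) among neuronal markers were called lower, and none of the thalamic, choroid plexus, astrocyte, oligodendrocyte, microglia or endothelial markers was called. Median log2 fold changes were -0.18 for hippocampal, 0.04 for neuronal, 1.02 for thalamic, 0.53 for choroid plexus, 0.13 for astrocyte, 0.45 for oligodendrocyte, 0.06 for microglia and 0.12 for endothelial markers.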

Additional observations from a re-analysis of the deposited data

Results flagged for a closer look

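Of 20 groups of 6 libraries examined (10 genes under 2 labels), 2 held a library that stood apart from the other 5 by Dixon's criterion, where chance alone gives about 1. Khsrp had 107 CPM in KO-labelled replicate 1 and 86.7 to 89.6 CPM in the other 5. WT-labelled replicate 1 was also the highest of its group for Khsrp, at 108 CPM, without standing apart. Tia1 had 124 CPM in KO-labelled replicate 3 and 136 to 143 CPM in the other 5, the library that was also highest in oligodendrocyte and thalamic markers. Without that library Tia1 remained below 1% FDR in edgeR, with an adjusted p of 0.00863.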

How the results depend on the processing

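The count of the 10 genes at 1% FDR, 1 with all libraries and lower in each case, was 2 with DESeq2 and at 5% FDR (Tia1 and Hnrnpd), 0 with upper quartile scaling, with either offset alone or with the block, and in both added fits, and 0 to 1 when 1 library was left out. For Tia1 the call was lost at a log2 fold change of -0.16 with upper quartile scaling (edgeR adjusted p = 0.016). It was also lost at -0.08 (length offset) and -0.12 (GC offset), each with or without the block. In the added fits it was lost at -0.17 (without KO-labelled replicates 2 and 3) and -0.18 (longest transcript). Where leaving out 1 library lost the call, the log2 fold change was -0.19 to -0.17, with edgeR adjusted p values of 0.0112 to 0.0239. Hnrnpd passed 1% with DESeq2 (-0.14, adjusted p = 0.00967), and Hnrnpd (-0.14) passed at 5% FDR. Signs turned for values near 0, namely Elavl1 (-0.0002 without KO-labelled replicate 1, -0.0003 without KO-labelled replicates 2 and 3), Elavl3 (0.0078 with upper quartile scaling and with the longest transcript, 0.0087 without KO-labelled replicates 2 and 3, 0.0107 without KO-labelled replicate 2) and Khsrp (0.0192 without WT-labelled replicate 1), whose ranges with 1 library left out were -0.0002 to 0.0409, -0.0308 to 0.0107 and -0.0758 to 0.0192. Genes whose groups did not overlap numbered 1 to 2 with 1 library left out, the second without WT-labelled replicate 4 or KO-labelled replicate 2. Calls among other AU-rich or U-rich RNA binding proteins numbered 2 with DESeq2 and with the block, 3 at 5% FDR, and 0 with the GC offset and block and in both added fits. Calls among kinases and ligands numbered 0 with upper quartile scaling, with the GC offset and block and in both added fits, and 0 to 1 with 1 library left out. Decay genes called numbered 2 to 3 with 1 library left out, and known ARE mRNAs and activity-induced genes 0. With the longest transcript, levels were 21.0 (Elavl2), 12.4 (Elavl4), 26.1 (Hnrnpd) and 32.5 (Tia1) CPM per kilobase. Over all genes, 434 calls became 678 with DESeq2, 284 with the length offset and 202 without KO-labelled replicates 2 and 3. The causes were not tested.

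Equal replicate numbers are not stated to share a litter or batch. Deviations of the 6 same-numbered pairs correlated at -0.08 to 0.26 (mean 0.14, 5 of 6 above 0.1), against a mean of -0.03 over 30 pairs with different numbers, and 4 of 12 libraries were most like their own number. That is a hint of shared structure from the data, not the design, and as 1 pair was below 0.1 the numbers were not taken as pairs. The replicate block left 1 of the 10 genes called (Tia1, log2 fold change -0.19, adjusted p = 0.00703) and gave 514 calls over all genes.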
